A study of Mus musculus with 4 samples.

Results

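Beta-catenin, the TCF/LEF proteins that it joins on DNA, and the proteins that meet this complex in the nucleus are described here as a group of 10 genes: Ctnnb1, Tcf7, Tcf7l1, Tcf7l2, Lef1, Bcl9, Bcl9l, Pygo2, Ctnnbip1 and Tle1. Members were chosen by name, as every probe whose gene symbol is 1 of these 10. They make up 10 of the 24278 genes on the array and are read by 18 probes on 19 spots. Of the 10 members, 5 have 1 probe and 5 have more. The probe with the highest mean signal stands for the gene below, and the 8 further probes are given beside it.

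RNA was measured in progenitors sorted from the bone marrow of adult mice, with 1 single-colour Agilent array for each of 4 groups. WT mice were Wild Type littermates, and SFRP5 mice were SFRP5-transgenic. SFRP5 is a secreted protein that binds Wnt ligands, and the arrays were run to look for genes that its expression regulates. From each genotype came an LSK sort (Lin- c-kitHi Sca-1+), which holds stem cells and multipotent progenitors, and a CLP-enriched sort (Lin- c-kitLo Sca-1Lo IL7Rα+), named for common lymphoid progenitors. The groups are therefore WT LSK, SFRP5 LSK, WT CLP and SFRP5 CLP. The promoter and the cells that drive the transgene, the number and sex of the mice, and any pooling of mice do not appear in the labels used here.

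When a Wnt ligand binds its receptors, beta-catenin escapes degradation, enters the nucleus and binds TCF/LEF proteins at Wnt target genes. Without it, TCF/LEF proteins sit on the same sites with Groucho/TLE corepressors. BCL9 proteins bridge beta-catenin to Pygopus proteins, and CTNNBIP1 occupies the surface of beta-catenin that TCF/LEF proteins need. In blood-forming tissue, TCF1 (the product of Tcf7) and LEF1 are best known from T cell development, and LEF1 also from early B cells.

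TCF/LEF proteins share a binding core, CTTTG, and the start of 3 members is shown to let a reader see this core in sequence. Each run holds the 250 bases that precede the first annotated base of the gene (RefSeq, GRCm38.p6, plus strand, 5′ to 3′), and capitals mark CTTTG or its reverse complement CAAAG. Lef1 (chr3:131110047-131110296) is shown because its signal differed most between the sorts, Ctnnbip1 (chr4:149517991-149518240) because it was higher in SFRP5 CLP, and Ctnnb1 (chr9:120933150-120933399) because its signal differed least between the genotypes with the scaling used here.
Lef1: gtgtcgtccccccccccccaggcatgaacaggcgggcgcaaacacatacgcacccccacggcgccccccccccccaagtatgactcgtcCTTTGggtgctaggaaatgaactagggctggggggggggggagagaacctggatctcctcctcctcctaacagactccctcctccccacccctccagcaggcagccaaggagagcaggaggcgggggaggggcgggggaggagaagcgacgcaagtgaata
Ctnnbip1: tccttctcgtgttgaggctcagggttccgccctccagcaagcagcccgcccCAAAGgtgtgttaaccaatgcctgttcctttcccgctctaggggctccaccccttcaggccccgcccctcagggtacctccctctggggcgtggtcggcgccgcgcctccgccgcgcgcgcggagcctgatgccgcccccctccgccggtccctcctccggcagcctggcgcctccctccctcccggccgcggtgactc
Ctnnb1: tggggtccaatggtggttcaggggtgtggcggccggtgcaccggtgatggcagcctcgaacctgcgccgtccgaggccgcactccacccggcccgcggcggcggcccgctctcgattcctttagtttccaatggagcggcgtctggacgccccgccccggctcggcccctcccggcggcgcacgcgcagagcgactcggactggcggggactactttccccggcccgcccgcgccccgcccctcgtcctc
Lef1 and Ctnnbip1 have 1 match each and Ctnnb1 has 0. Over windows of 300 bases (250 before and 50 after a start, both strands), 5 of the 9 members with a window hold CTTTG, namely Ctnnbip1, Lef1, Pygo2, Tcf7l1 and Tcf7l2. The same letters lie in 53.9% of all 32851 windows. Of the 18 member windows, 9 hold CTTTG, 0 hold CTTTGAT (3.73% of all windows) and 1, of Tcf7l2, holds CTTTGTT (5.85%). Both longer motifs contain the core. A match describes letters in a window and is not a measured binding site. Bcl9l has no window.

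Signals are log2 intensities minus the 75th percentile of the same array, so 0 is the level of that percentile. That percentile was an intensity of 227.2 to 290.9 on the 4 arrays, and 65.3% to 70.1% of probes were well above background by the flag of the scanner software. With 1 array per group there is no replicate check and no test, and a difference describes these arrays. The only error in the files comes from 432 probes that each array carries on several spots. The median SD over their spots ran from 0.05 to 0.07 log2 at signals above 2 and from 0.37 to 0.49 at signals below -4. The number after ± is the SD of a difference from this spread at the probe's own brightness, which covers neither cells, mice nor amplification. A difference of 2-fold (1 log2) is counted where both arrays read the probe well above background. Where 1 array alone did, a lower bound of the fold is given, with the dim array set to its lowest signal well above background, or to the probe's own reading if higher.

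The genes of the surface proteins that the sort labels name were placed as the labels say. Kit was at 5.08 in WT LSK and 5.18 in SFRP5 LSK against 2.75 and 3.47 in the CLP sorts, Ly6a (Sca-1) at 1.35 and 1.02 against -0.84 and -0.70, and Il7r at -0.51 and 0.89 against 2.52 and 3.13. Slamf1, a stem cell marker, was well above background on no array. Flt3 and Cd34, also on the list of sort markers, were lower in the CLP sorts. Flt3 was at 2.95 (WT) and 3.10 (SFRP5) in LSK against 0.24 and 0.32 in CLP, and Cd34 at 5.04 and 5.47 against 2.52 and 2.37. The CLP sorts also carried signals of other lineages. Summed over marker lists, in units of the array's 75th percentile, B lineage signal was 25.6 and 25.4 in the LSK sorts (WT and SFRP5) and 140.0 and 182.0 in the CLP sorts, and erythroid signal was 39.3 and 35.0 in LSK and 333.0 and 235.0 in CLP. Mast cell and basophil signal was 7.53 and 7.96 in LSK against 61.2 and 45.6 in CLP. Of the granulocyte and monocyte markers, 8 of 12 were at least 2-fold higher and 0 lower in CLP in WT (median 2.87), and 6 of 13 higher and 2 lower in SFRP5 (median 0.76). Over all genes, 17.8% were 2-fold higher and 14.3% lower in CLP in WT, and 11.5% and 11.0% in SFRP5. The part of cells of these lineages in any difference of a member between sorts was not tested. The genotypes differed in sex-linked genes. In the SFRP5 sorts Xist was at 4.99 (LSK) and 4.50 (CLP), and it was not well above background in either WT sample, and of 4 Y-linked genes 3 were at least 2-fold lower with the transgene in LSK and 4 in CLP. Sex of the cells, array position on the single slide and genotype cannot be told apart. Nor can bulk samples tell fewer cells of a type from less RNA per cell.

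Most of the group was readily measured. Of the 10 members, 8 were well above background on all 4 arrays by their main probe, and the exceptions were Lef1 and Tcf7l1. By the same rule 15179 of all 24278 genes were, so with 10 genes the count is a description. Of the 18 probes, 12 were above on all 4 arrays, 5 on 1 to 3 arrays and 1, a probe of Tcf7l2, on none.

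**Figure D1:**
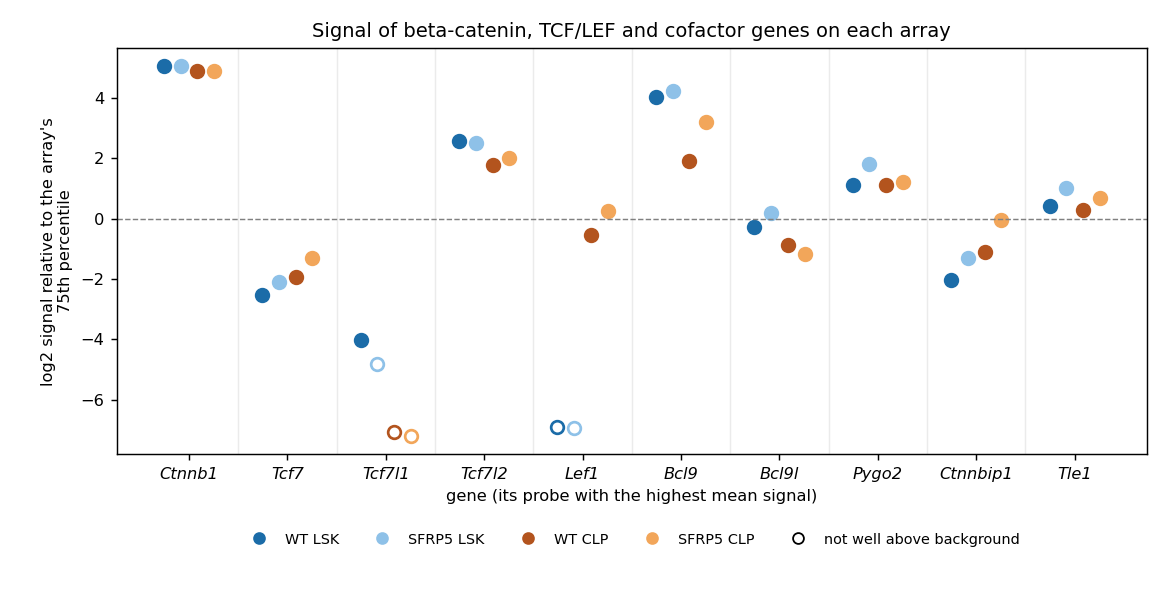
Signal of the main probe of each gene on each array, in log2 with each array's 75th percentile at 0 (dashed line); each point is 1 array, and open points were not well above background. Ctnnb1 lies between 4.88 and 5.04 on all 4 arrays, whereas Lef1 is at -0.53 and 0.24 in the CLP sorts and below background in both LSK sorts. Levels of different genes come from different probes and are not to be set against each other.

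Ctnnb1, which encodes beta-catenin itself, was at 5.04 in LSK of both genotypes and at 4.88 in CLP of both. Its 2 spots read 5.01 and 5.07 on both LSK arrays, 4.87 and 4.89 in WT CLP, and 4.88 and 4.89 in SFRP5 CLP. The genotype difference was -0.003 ± 0.09 log2 in LSK and 0.004 ± 0.08 in CLP, smaller than the gap between the 2 spots of 1 array in LSK. Between sorts it was -0.16 ± 0.09 in WT and -0.16 ± 0.08 in SFRP5, and over 8 processing settings it ran from -0.76 to -0.16 in WT and from -0.37 to -0.15 in SFRP5. Both CLP arrays lie below both LSK arrays, by 1.12-fold in WT and 1.11-fold in SFRP5. With this scaling the genotypes differed by less than the spot error in both sorts. That does not hold under all scalings: over 8 processing settings the genotype difference ran from -0.22 to 0.03 in LSK and from 0.0 to 0.19 in CLP. RNA says nothing of the amount of beta-catenin protein, the step that Wnt signalling sets.

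Tcf7 encodes TCF1, the TCF factor best known from early T cell progenitors. Its main probe was at -2.52 in WT and -2.09 in SFRP5 among the LSK arrays, and at -1.94 in WT and -1.30 in SFRP5 among the CLP arrays. SFRP5 lay above WT by 0.43 ± 0.30 in LSK and 0.64 ± 0.15 (SD between spots) in CLP, and CLP above LSK by 0.58 ± 0.23 in WT and 0.79 ± 0.24 in SFRP5. SFRP5 CLP was the highest array and WT LSK the lowest, and the 2 between them differed by less than their spread.

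The further Tcf7 probe, which carries the same transcript accession, reads the genotypes the other way. In WT it was at -4.14 (LSK) and -1.22 (CLP), and in SFRP5 below background in LSK (-5.68) and at -2.91 in CLP. SFRP5 was lower by a difference of -1.69 ± 0.21 in CLP (3.22-fold), and by at least 1.91-fold in LSK. The probes of Tcf7 are thus 2.33 log2 apart in the CLP genotype difference, and no direction can be given for it. They do share the order of the sorts: by the further probe CLP exceeded LSK by 2.93 ± 0.49 in WT (7.61-fold) and by at least 4.51-fold in SFRP5.

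Lef1 showed the widest gap between the sorts of any member. LEF1 is the TCF/LEF factor of early B and T cells. The main probe was not well above background in WT LSK (-6.92) or SFRP5 LSK (-6.94), and read -0.53 in WT CLP and 0.24 in SFRP5 CLP. CLP exceeded LSK by at least 23.3-fold in WT. The same probe gives at least 39.9-fold in SFRP5, but there the further Lef1 probe was above background in LSK. With normexp background correction, which adds an offset of 50 to every signal, the bounds were 4.2-fold and 6.25-fold. Both CLP arrays stood above both LSK arrays in all scalings tried.

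The further Lef1 probe was dim on all arrays, at -4.49 in LSK (not well above background) and -3.51 in CLP for WT, and at -4.03 in LSK and -2.53 in CLP for SFRP5. It places CLP over LSK by 1.5 ± 0.52 in SFRP5 (2.82-fold) and by at least 1.98-fold in WT. Within CLP, SFRP5 exceeded WT by 0.77 ± 0.12 on the main probe (1.71-fold) and by 0.97 ± 0.27 on the further probe (1.96-fold). The first of these ran from 0.63 to 0.87 over 8 processing settings, and the second from 0.15 to 1.07. With the scaling used here the genotype difference of Lef1 in CLP was below 2-fold on both probes, and the top of the range on the further probe (1.07) is past it.

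B lineage genes moved with Lef1 between the sorts, and so did genes of other lineages. Erythroid markers were 2-fold higher in CLP for 9 of 10 in WT (median 4.32) and 9 of 10 in SFRP5 (median 3.65). Mast cell and basophil markers were higher for 4 of 6 in WT, with 1 lower (median 4.25), and for 3 of 5 in SFRP5 (median 2.66). Of 12 B lineage markers measured in both sorts, 11 were at least 2-fold higher in CLP in WT and 11 in SFRP5, with a median difference of 4.19 and 3.84 log2. In CLP, SFRP5 exceeded WT in B lineage genes too, with a median difference of 0.45 over 13 measured markers, of which Rag1 (1.33) and Ebf1 (1.12) were past 2-fold. T cell markers were mixed: 0 of 9 were 2-fold higher and 2 lower in CLP in WT (median -0.80), and 0 of 8 were past 2-fold in SFRP5 (median 0.21). Their summed signal was 25.8 and 20.3 in LSK (WT and SFRP5) and 17.8 and 22.0 in CLP. Of the CD3 and CD8 genes of that list, Cd3e was above background on all 4 arrays, at 0.12 and -0.14 in LSK and -0.70 and -0.67 in CLP. Cd3d was above it in WT CLP alone, at least 4.74-fold over WT LSK, and Cd8a in WT LSK alone, and Cd3g and Cd8b1 were above it on no array. Of the NK and innate lymphoid markers, 3 of 10 were 2-fold higher and 0 lower in CLP in WT (median 0.38), led by Il1rl1 (4.88) and Zbtb16 (2.06), and 5 of 11 higher and 1 lower in SFRP5 (median 0.59). Their summed signal was 21.3 and 23.6 in LSK and 49.5 and 51.6 in CLP. Beside these counts, 17.8% of all genes were 2-fold higher and 14.3% lower in CLP in WT, and 11.5% and 11.0% in SFRP5. The part of B lineage, T, NK or innate lymphoid cells in the Lef1 and Tcf7 differences was not tested.

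Tcf7l1 encodes a TCF protein also called TCF3, mainly a repressor of Wnt targets and best known from embryonic stem cells and skin. It was well above background in WT LSK alone, at -4.02, and read -4.82 in SFRP5 LSK and -7.06 (WT) and -7.21 (SFRP5) in CLP. WT CLP was lower than WT LSK by at least 3.3-fold, and SFRP5 LSK than WT LSK by at least 1.74-fold. At this brightness the SD between spots of a difference is 0.65 to 0.68 log2, so the second bound is little above the spot error.

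Tcf7l2 encodes a TCF protein also called TCF4, known as the TCF factor of the gut epithelium. Its main probe was at 2.57 (WT) and 2.50 (SFRP5) in LSK, and at 1.79 (WT) and 2.01 (SFRP5) in CLP. The LSK arrays did not differ beyond their spread (-0.07 ± 0.09, and from -0.27 to 0.46 over 8 processing settings), and SFRP5 CLP lay above WT CLP by 0.22 ± 0.09. CLP was lower than LSK by a difference of -0.78 ± 0.10 in WT and -0.49 ± 0.08 in SFRP5.

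The further Tcf7l2 probes name other transcript variants. A_55_P2030160 was at 1.1 (WT) and 2.09 (SFRP5) in LSK, and at -0.29 (WT) and -0.52 (SFRP5) in CLP. SFRP5 LSK stood 0.98 ± 0.09 above WT LSK (1.98-fold), while the main probe gave -0.07, and SFRP5 CLP was lower than WT CLP by a difference of -0.22 ± 0.15. CLP was lower than LSK, with differences of -1.40 ± 0.13 in WT (2.63-fold) and -2.61 ± 0.12 in SFRP5 (6.09-fold). A_55_P2260094 was above background on no array. Both readable probes place CLP below LSK in each genotype, and they give opposite signs for the genotype in each sort.

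Among the beta-catenin cofactors, Bcl9 differed most. BCL9 is the adaptor that binds beta-catenin and recruits Pygopus. The main probe was at 4.03 (WT) and 4.24 (SFRP5) in LSK, and at 1.89 (WT) and 3.20 (SFRP5) in CLP. WT CLP stood apart as the lowest array: it was below WT LSK by a difference of -2.14 ± 0.10 (4.42-fold) and below SFRP5 CLP by 2.47-fold, with SFRP5 exceeding WT there by 1.30 ± 0.09. SFRP5 CLP was below SFRP5 LSK, with a difference of -1.04 ± 0.08 (2.06-fold), and in LSK the genotypes differed by 0.20 ± 0.09.

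The further Bcl9 probe was at 0.08 (WT) and 1.14 (SFRP5) in LSK, and at -0.79 (WT) and 0.79 (SFRP5) in CLP. It also had WT CLP lowest and SFRP5 above WT in CLP, by 1.57 ± 0.12 (2.98-fold). In LSK it gave 1.06 ± 0.10 (2.08-fold), where the main probe gave 0.20. Between sorts it gave -0.87 ± 0.13 in WT and -0.35 ± 0.09 in SFRP5, the same signs as the main probe at smaller size. The genotype difference of Bcl9 in CLP was past 2-fold on both probes, and ran from 1.21 to 1.44 on the main probe over 8 processing settings.

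Bcl9l, the paralogue of Bcl9, read -0.27 (WT) and 0.18 (SFRP5) in LSK, and -0.87 (WT) and -1.18 (SFRP5) in CLP. The SFRP5 sorts were thus the highest and the lowest of the 4 arrays. SFRP5 CLP was below SFRP5 LSK, with a difference of -1.36 ± 0.12 (2.56-fold), against -0.60 ± 0.14 in WT. The genotype difference was 0.45 ± 0.11 in LSK and -0.31 ± 0.15 in CLP.

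Pygo2, a PHD finger protein that reads methylated histone H3 tails and is brought to beta-catenin by BCL9, was at 1.13 (WT) and 1.82 (SFRP5) in LSK, and at 1.1 (WT) and 1.22 (SFRP5) in CLP. With the scaling used here, SFRP5 LSK stood apart from the other 3 arrays, which lay within 0.12 log2 of each other. It exceeded WT LSK by 0.69 ± 0.10, and SFRP5 CLP was below it, with a difference of -0.60 ± 0.09. The closeness of the other 3 depends on the scaling: over 8 processing settings the sort difference in WT ran from -0.44 to 0.03.

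Ctnnbip1 encodes ICAT, a small inhibitor that keeps beta-catenin from TCF/LEF proteins. It was at -2.03 (WT) and -1.31 (SFRP5) in LSK, and at -1.11 (WT) and -0.04 (SFRP5) in CLP. SFRP5 exceeded WT in both sorts, by 0.72 ± 0.23 in LSK and by 1.07 ± 0.15 in CLP (2.1-fold). CLP exceeded LSK by 0.92 ± 0.23 in WT and by 1.26 ± 0.14 in SFRP5 (2.4-fold). SFRP5 CLP was the highest array and WT LSK the lowest. Ctnnbip1 has 1 probe, so no second reading of these differences was had.

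Tle1, a Groucho-type corepressor that TCF/LEF proteins hold when beta-catenin is absent, has 4 probes. The main probe was at 0.42 (WT) and 1.0 (SFRP5) in LSK and at 0.27 (WT) and 0.68 (SFRP5) in CLP, and SFRP5 exceeded WT by 0.58 ± 0.10 in LSK and 0.41 ± 0.09 in CLP. The probe A_52_P330694 was at -0.18, 0.64, -0.83 and 0.22 in that order, with SFRP5 higher by 0.82 ± 0.11 in LSK and 1.05 ± 0.12 in CLP (2.07-fold). Both had the SFRP5 array above the WT array in each sort.

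The dimmer Tle1 probes gave mixed genotype differences. A_55_P1968355 was at -1.92, -1.86, -2.95 and -2.78 in that order, with genotype differences of 0.05 ± 0.13 in LSK and 0.17 ± 0.27 in CLP and a sort difference of -1.03 ± 0.22 in WT (2.05-fold). A_66_P137556 was at -4.05 (WT) and -4.02 (SFRP5) in LSK, below background in WT CLP (-5.36) and at -4.24 in SFRP5 CLP, so SFRP5 exceeded WT in CLP by at least 2.17-fold, with a spot SD of 0.57 log2 at this brightness. All 4 probes put CLP below LSK in both genotypes. Differences measured on both arrays ran from -0.15 ± 0.10 (main probe, WT) to -1.03. That of A_66_P137556 in SFRP5 lay within spot error (-0.23 ± 0.61), and in WT its CLP array was below background.

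In LSK, no member was past 2-fold between the genotypes by its main probe. Of 8 members measured, 0 were at least 2-fold higher and 0 lower in SFRP5, against 6.57% and 7.17% of all 16125 genes measured, or 13.7% in either direction, by the same rule. Differences ran from -0.07 (Tcf7l2) to 0.72 (Ctnnbip1), and 6 of the 8 were above 0, as were 51.3% of all genes. Their median was 0.44, beside 0.02 over all genes and 0.18 over the genes whose brighter array lay at or above its 75th percentile. With 8 genes, a count of 0 is near that background. Of the granulocyte and monocyte markers, 5 of 12 were 2-fold higher and 0 lower in SFRP5 LSK (median 0.81), and their part in the members' differences was not tested. The further probe of Bcl9 was the single one of 13 measured member probes past 2-fold, where 16.1% of all probes were.

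In CLP, Bcl9 and Ctnnbip1 were at least 2-fold higher in SFRP5. They were 2 of 9 members measured, against 4.25% of 15942 genes higher, 4.3% lower and 8.56% in either direction, and no member was 2-fold lower. Differences ran from -0.31 (Bcl9l) to 1.30 (Bcl9), with a median of 0.41 beside -0.04 over all genes. Above 0 were 8 of 9, and 46.6% of all genes. The 8 include Ctnnb1 at 0.004, within spot error, and Tcf7 and Tcf7l2, whose further probes gave -1.69 and -0.22. Ctnnbip1 stayed past 2-fold under 6 of 8 processing settings (0.79 to 1.17) and Bcl9 under 8 of 8. With so few members this count is a description and was not tested. By probe, 5 of 15 were past 2-fold (4 higher, 1 lower), where 9.51% of all probes were. The 4 higher ones are both probes of Bcl9, the single one of Ctnnbip1 and a further one of Tle1, and the lower one is the further probe of Tcf7, so they come from 4 genes.

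**Figure D2:**
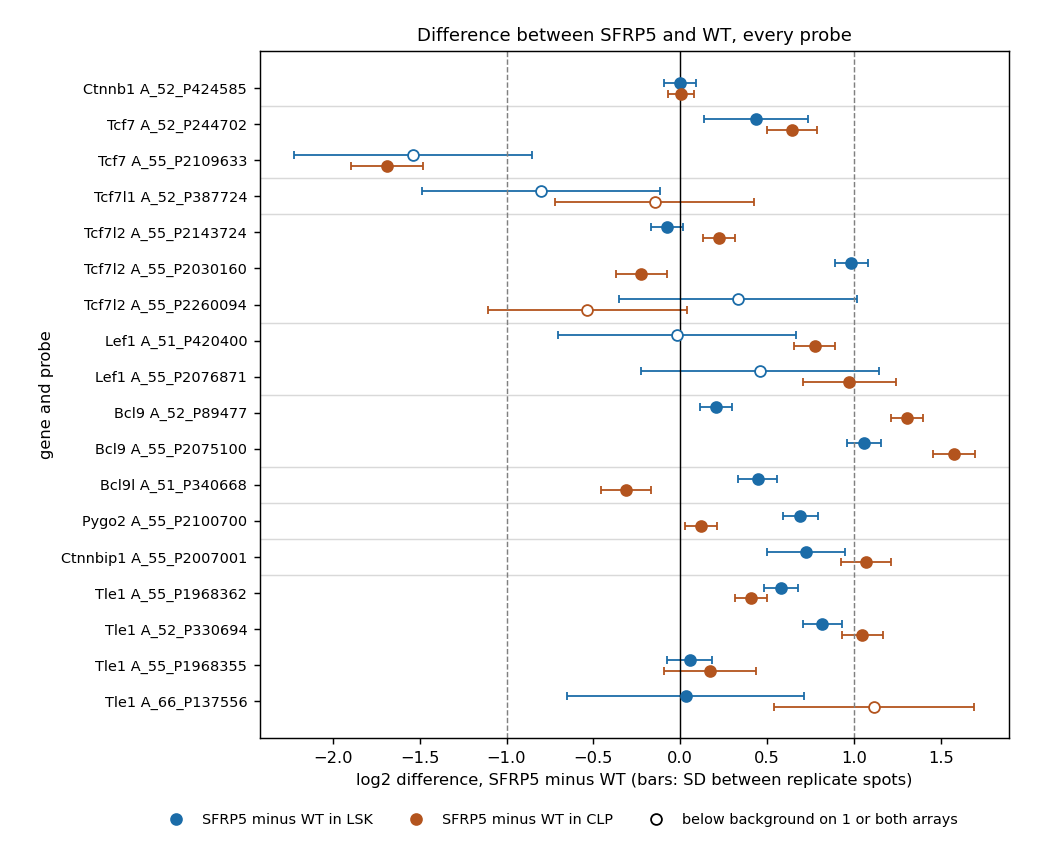
Difference SFRP5 minus WT in log2 for all 18 probes, in LSK (blue) and CLP (orange); bars are the SD of a difference from replicate spots, open points had 1 or both arrays below background, and dashed lines mark 2-fold. In CLP both probes of Bcl9 lie past the right dashed line, at 1.30 and 1.57, while the 2 probes of Tcf7 lie on opposite sides of 0, at 0.64 and -1.69.

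The genotype differences of the sorts were set side by side for the 8 members above background on all 4 arrays. By the main probes, Bcl9 alone differed by more than 2-fold between them, with 1.30 in CLP against 0.20 in LSK, a gap of 1.1. The further Bcl9 probe did not reach this, with 1.57 in CLP against 1.06 in LSK, a gap of 0.52. By main probe, that is 1 of 8 members (12.5%), against 22.6% of 15179 genes. Ctnnb1, Tcf7l2 and Bcl9l had opposite signs in the sorts, which 8037 of the 15179 genes also had. For Ctnnb1 both values lie within spot error of 0 with this scaling, and reach -0.22 in LSK and 0.19 in CLP with quantile normalization. No difference between the sorts was tested.

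Between the sorts, members differed in both directions. In WT, Bcl9 was at least 2-fold lower in CLP and no member measured on both arrays was 2-fold higher. That is 1 of 8 members, against 14.3% of 16016 genes lower, 17.8% higher and 32.1% in either direction. Lef1 was higher and Tcf7l1 lower in CLP by their bounds. The median over the 8 was -0.16, beside 0.02 over all genes.

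In SFRP5, Bcl9 and Bcl9l were at least 2-fold lower in CLP and Ctnnbip1 2-fold higher. Bcl9 was short of 2-fold with the mean of its probes (-0.70) and Ctnnbip1 with normexp (0.96). These are 3 of 8 members, against 22.5% of 15713 genes (11.5% higher and 11.0% lower). The median over the 8 was -0.40, beside 0.02 over all genes. By probe, 4 of 13 were past 2-fold in WT and 5 of 14 in SFRP5, where 32.2% and 21.2% of all probes were. Over 8 genes these shares were not tested, and in WT the place of the members relative to the background depends on the scaling: 3 of 8 were past 2-fold with the authors' scaling, quantile normalization or cyclic loess, where 36.1%, 31.0% and 30.1% of all genes were. The sort comparisons and the genotype comparisons use the same 4 arrays, so a high or low reading on 1 array enters a comparison of each kind.

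**Figure D3:**
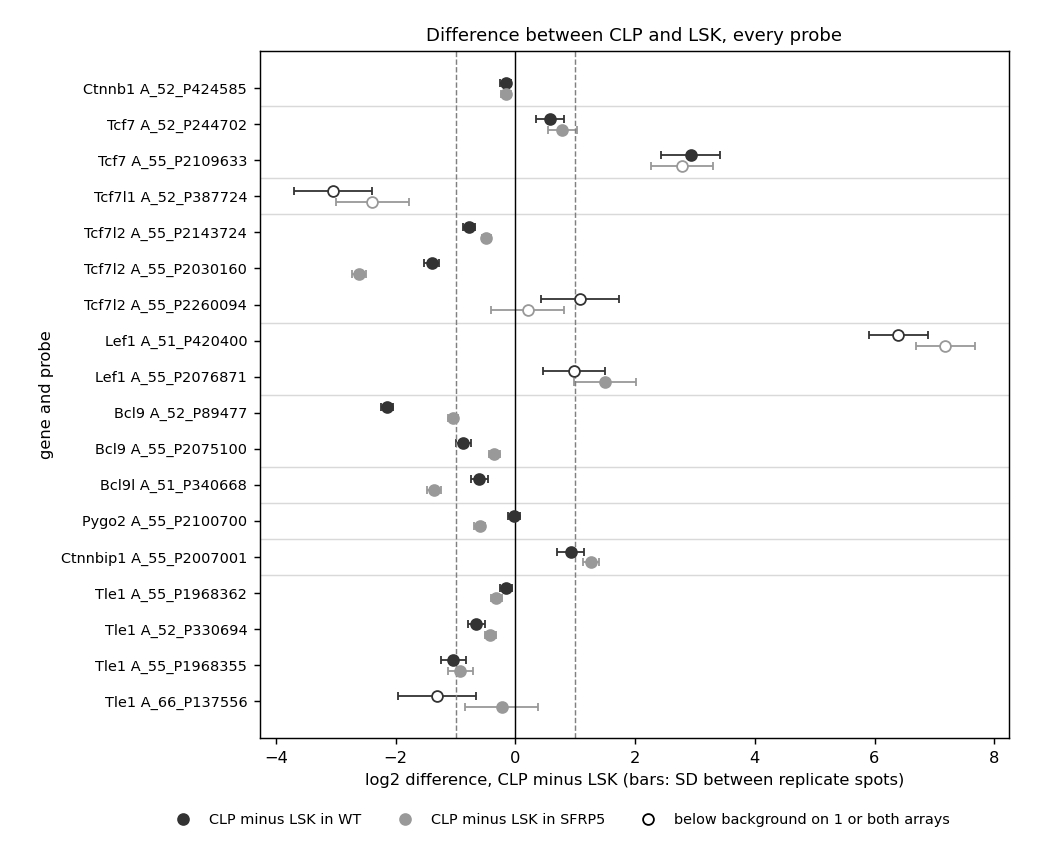
Difference CLP minus LSK in log2 for all 18 probes, in WT (black) and SFRP5 (grey); bars are the SD of a difference from replicate spots, open points had 1 or both arrays below background, and dashed lines mark 2-fold. Both Lef1 probes and both Tcf7 probes lie right of 0, and the probes of Bcl9, Bcl9l and Tle1 lie left of 0 in both genotypes.

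Further probes had the sign of the main probe in every measured sort difference and in most genotype differences. Counting further probes of members where both probes were measured, 10 of 10 had the sign of the main probe in the sort comparisons, 5 of 5 in each genotype. In the genotype comparisons 8 of 11 did, 4 of 5 in LSK and 4 of 6 in CLP. Tle1, with several further probes, gave 3 of the 4 in LSK and 2 of the 4 in CLP. In the sort comparisons it gave 2 of the 5 in WT and 3 of the 5 in SFRP5. The 3 opposite readings were Tcf7l2 in LSK, and Tcf7l2 and Tcf7 in CLP. Over all genes with a further probe, 1 further probe per gene was counted, the brightest measured. The shares over all genes and the member counts thus follow different rules. Over all genes, the sign was shared by 61.4% in LSK and 61.6% in CLP for genotype, and by 71.9% in WT and 66.6% in SFRP5 for sort. The median gap between 2 probes of a gene ran from 0.35 log2 in the CLP genotype comparison to 0.50 in the WT sort comparison. Probes of a gene share the RNA of the array and are no replicates of a genotype, and the difference in sharing was not tested.

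**Figure D4:**
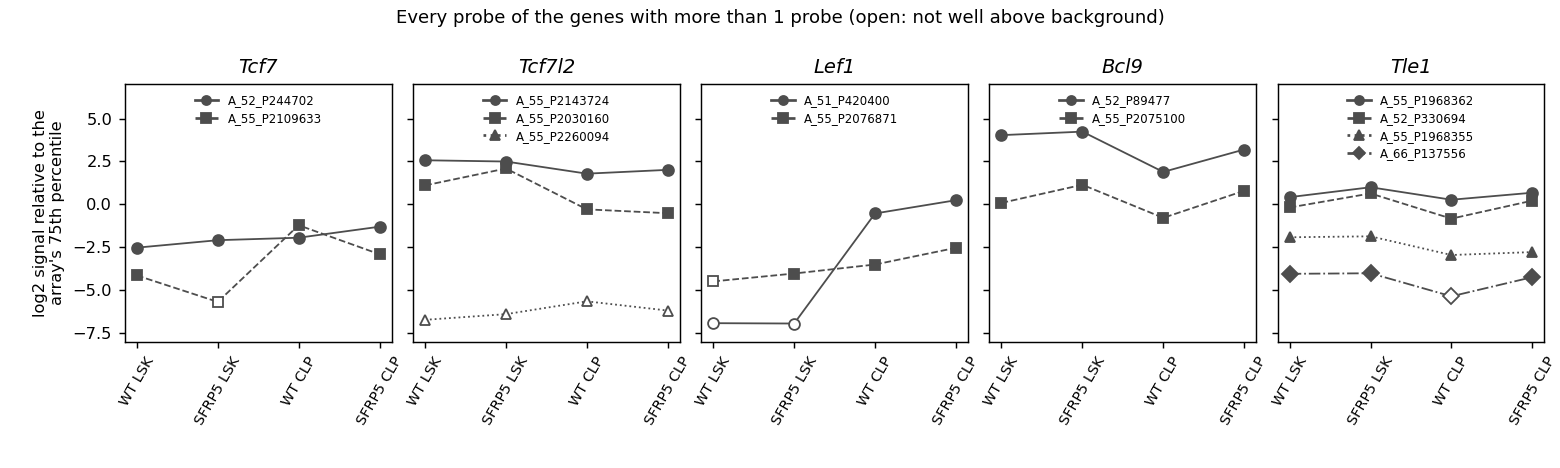
Signal of every probe on the 4 arrays (log2, each array's 75th percentile at 0) for the 5 genes with more than 1 probe; lines join the readings of 1 probe and are no time course, and open points were not well above background. The 2 Tcf7 probes cross between the genotypes, whereas the 2 Bcl9 probes both have their lowest point in WT CLP, at 1.89 and -0.79.

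Other genes of the nuclear complex were followed as a list of 25 corepressors and nuclear partners, all measured in every comparison. Between genotypes they stayed within 2-fold but for 1: Tle6, a Groucho-related gene, had a difference of -1.43 in LSK, and 0 of 25 were past 2-fold in CLP. Their median was 0.28 in LSK and -0.03 in CLP. Between sorts in WT, 5 were 2-fold higher in CLP, among them the corepressor Ctbp1 (1.37) and the deacetylase Hdac1 (1.25), and 1 was lower, the transcription factor Sox4 (-1.71). In SFRP5, 1 was higher (Tle6, 1.27) and 1 lower (Sox4, -1.59). These shares, like those that follow, are to be read beside the background percentages given above.

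Canonical Wnt target genes were past 2-fold between the genotypes in 1 case in LSK and in 3 in CLP. Of 25 on the array, 13 were measured in the LSK genotype comparison, with 1 higher in SFRP5 (Jun, an AP-1 factor, 1.04), 0 lower and a median of 0.05. In CLP, 2 of 13 were higher (the nuclear receptor Nr4a2, 1.86, and Jun, 1.13) and 1 lower (Znrf3, a ligase that removes Frizzled receptors, -1.12), with a median of 0.02; the background in either direction is 8.56% there and 13.7% in LSK. Bounds add 2 genes higher with the transgene in LSK, Apcdd1 (at least 2.09-fold) and Fosl1 (at least 2.55-fold). In CLP they add 2 lower genes, Axin2 and Rnf43.

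Axin2, the target most often used to read Wnt activity, was well above background by its main probe in SFRP5 LSK (-3.73) and WT CLP (-3.24) and not in WT LSK or SFRP5 CLP. Another Axin2 probe was above background in WT LSK, so no bound is given against that array. Within CLP it was at least 2.84-fold lower in SFRP5. Rnf43, a ligase that like Znrf3 removes Frizzled receptors, was above background in WT CLP alone (-0.88), at least 18.8-fold over SFRP5 CLP, and Sp5, a transcription factor, was at least 1.63-fold lower in SFRP5 CLP. Nkd1, another feedback target, was above background on no array. Notum, a secreted enzyme that inactivates Wnt, was at 2.31 (WT) and 2.03 (SFRP5) in LSK, and at 1.90 (WT) and 1.96 (SFRP5) in CLP. In CLP, Axin2, Rnf43, Znrf3 and Sp5 thus read lower in SFRP5 and Nr4a2 and Jun higher. These genes were singled out after their values were seen. Sp5 lay below -4 in both CLP sorts, where the SD between spots of a difference is 0.57 log2, so its bound is little above the spot error. Axin2 was dim too: the median SD between spots was 0.20 in WT CLP and 0.37 in SFRP5 CLP at its brightness.

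Between sorts, the Wnt targets past 2-fold lay on both sides. In WT, 1 of 13 was 2-fold higher (Tnfrsf19, 1.72) and 2 lower (Nr4a2, -1.82, and the cyclin gene Ccnd2, -1.28), with a median of -0.42. In SFRP5, 1 of 12 was higher (Tnfrsf19, 2.14) and 4 lower, among them Ccnd1 (-1.72) and Ccnd2 (-1.58), with a median of -0.41. Bounds add 2 genes higher in CLP in WT, Rnf43 (at least 18.2-fold) and Lgr5 (at least 8.52-fold), and 0 lower. In SFRP5 they add Lgr5 higher (at least 6.65-fold) and 3 lower: Axin2 (2.03-fold), Apcdd1 (2.97-fold) and Fosl1 (2.71-fold). These 3 were dim in SFRP5 LSK, at -3.73, -3.43 and -3.72.

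Beta-catenin also joins cadherins to the cytoskeleton, and 10 catenin and cadherin genes were followed for this. In LSK, 0 of 8 were 2-fold higher in SFRP5 and 1 lower, Ctnnal1 (-1.98), with a median of -0.33. In CLP, 0 of 9 were past 2-fold and the median was 0.38. Between sorts in WT, 3 of 8 were lower in CLP, including Ctnnal1 (-1.64) and the plakoglobin gene Jup (-1.23), with a median of -0.80. In SFRP5, 0 of 8 were past 2-fold and the median was -0.04.

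Lymphoid genes known to be tied to TCF1 and LEF1 were followed as a list of 15, several of which are B lineage markers too. Between sorts in WT, 8 of 13 were 2-fold higher in CLP and 1 lower, with a median of 1.90. In SFRP5, 7 of 13 were higher and 0 lower, with a median of 1.28. Between genotypes, in LSK 5 of 14 were higher in SFRP5 and 2 lower (median 0.50), and in CLP 2 of 14 were higher and 0 lower (median 0.49). Between sorts, the 8 higher in WT CLP were Hes1, the sort marker Il7r, and the B lineage markers Rag1, Rag2, Pax5, Cd79a, Vpreb1 and Igll1. The 7 in SFRP5 were the same but for Hes1. Notch1, Bcl11b and Ptcra were lower in CLP in both genotypes, at -1.14, -0.62 and -0.88 in WT. Notch3 was lower by at least 2.43-fold in WT, and Gata3 and Dntt were higher by less than 2-fold. Ebf1, not well above background in either LSK sort, was higher in CLP by at least 16.4-fold in WT and 34.5-fold in SFRP5. The genes that lay on the CLP side with Lef1 were thus mainly B lineage markers. The part of B lineage cells in these differences was not tested.

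Patterns over the 4 arrays were matched for the 4 members above background on all arrays whose levels span at least 1 log2. The measure was the Euclidean distance between 4 log2 levels centred on their mean, over 13238 genes. Nearest to Tcf7 by its main probe were Snx5 (0.047), Cd14 (0.074) and Diras2 (0.076). Nearest to Bcl9 were Kcna3 (0.107), Myo5a (0.185) and Gramd1b (0.192). Nearest to Bcl9l were Egfl7 (0.045), Clec14a (0.085) and Nfe2 (0.088), and nearest to Ctnnbip1 were Uaca (0.19), Ogg1 (0.194) and Shb (0.199). The likeness rests on 4 arrays of 1 library each and is a description.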

How the data were processed

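RNA from 4 sorts was labelled with Cy3 after amplification of 6.1 ng of total RNA, per the labels' protocols. The deposited files hold the intensity of each spot, background-subtracted by the authors with Agilent Feature Extraction (10.10 in the submitters' processing notes, 10.10.1.1 per the file headers) on probes annotated with mm9. The authors' deposited signal table holds the same intensity multiplied by a constant for each array: 6.42 (WT) and 5.85 (SFRP5) for LSK, 5.86 (WT) and 4.91 (SFRP5) for CLP. The labels do not say how it was set. The 4 arrays share 1 slide and 1 scan.

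Here the log2 of the processed intensity of 59305 spots outside the controls was taken minus the array's 75th percentile. Spots flagged as outliers were dropped (128 to 160 per array, none of a member), none was saturated, and spots of a probe were averaged. Symbols of 55681 probes (33325 with one) were updated through RefSeq (GRCm38.p6) for 30994 probes, which changed 3525. Each comparison is a difference of 2 log2 values and has no test, and it was counted at 2-fold. Normexp was run on gMedianSignal (in place of the planned mean signal) and gBGMedianSignal with an offset of 50. Members, gene lists and rules for named genes (all members, and from each list the 2 highest and 2 lowest past 2-fold per comparison) were chosen with earlier results of these data known. Some list genes were named outside these rules to show both directions. The 2-fold count was tried on simulated data for genotype in LSK alone, with every spot set well above background. That trial did not cover the background rule, the lower bounds or dim probes. Tools were R 4.3.3, limma 3.58.1, Python 3.11.15, numpy 2.4.6 and pandas 2.3.3.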

Additional observations from a re-analysis of the deposited data

Results flagged for a closer look

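The further Tcf7l2 probe A_55_P2030160 moved in opposite directions in the sorts. SFRP5 exceeded WT by 0.98 log2 in LSK and lay below it by -0.22 in CLP, so the genotype difference in CLP minus that in LSK was -1.21. With 1 array per group the difference was not tested. The main Tcf7l2 probe gave -0.07 in LSK and 0.22 in CLP, the other way round and smaller.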

How the results depend on the processing

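No paired analysis was possible because each group has 1 array and no replicate number. The count of members past 2-fold changed as follows. At 1.5-fold it was 2 (for 0) for genotype in LSK, 4 (for 2) in CLP, 4 (for 1) between sorts in WT and 5 (for 3) in SFRP5. For genotype in CLP it was 1 with quantile normalization and 1 with normexp. Between sorts in WT it was 3 with the authors' scaling, quantile normalization or cyclic loess, 2 with the percentile over probes above background on all 4 arrays, 3 with a gene's probes averaged and 3 with no filter on dim probes. In SFRP5 it was 5 with the mean of probes, 5 with no filter and 2 with normexp. Bcl9 kept 2-fold in CLP under 8 of 8 settings, and Ctnnbip1 under 6 of 8 (0.79 to 1.17). Tcf7 turned sign with the mean of its probes, to -0.55 in LSK and -0.52 in CLP. The median over all genes shifted by -0.13, -0.41 and -0.19 log2 (genotype in LSK, sort in WT, sort in SFRP5) with the authors' scaling, and by -0.11, -0.22 and -0.12 with the percentile over probes above background. The share of all 2-fold genes that were higher was 47.8% for genotype in LSK, and 33.4% with the authors' scaling, 63.4% with cyclic loess, 62.8% with normexp, 59.1% with quantile normalization and 35.6% with the percentile over detected probes. For genotype in CLP it was 49.7%, and 60.1% with the authors' scaling. Between sorts it was 55.5% in WT, and 26.6% with the authors' scaling, 66.1% with normexp and 39.2% with the percentile over detected probes, and 51.1% in SFRP5, and 37.6% with the authors' scaling. Under the scalings, 6 of 8 members were above 0 for genotype in LSK (8 with normexp) and 8 of 9 in CLP. Normexp pulls dim signals together. Tcf7l1, Lef1 in LSK and the dimmest probes lie where replicate spots differ by 0.37 to 0.49 log2 below -4, which limits the precision of their differences.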
